A study of Mus musculus with 15 samples.

Results

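Bulk RNA was compared between the end and the start of the mesodermal path of a mouse neuromesodermal progenitor culture: 3 libraries of Tbxt-derived cells after 7 d (Tbxt 7 d cells) against 3 libraries of the starting progenitors (NMPs). The 6 libraries were chosen by their labels, out of 15 in the series, and only named genes were used. The starting line, STR-KI, consists of mouse embryonic stem cells that carry a reporter and a wild-type allele at each of 2 genes (genotype Sox2::mCherry/WT, Tbxt::GFP/WT); the labels do not say whether it is 1 clone. Tbxt 7 d cells were sorted as Tbxt::GFP+, replated for 7 d in FGF/CHIR, and sorted again as double negative, that is, without either reporter. NMPs were made on gelatin in N2B27 by 48 h in 10 ng/mL FGF2 and 24 h in FGF2 with 5 µM CHIRON99021 (CHIR), and were sorted as positive for both reporters. Tbxt 48 h cells (2 libraries), NMPs cultured for 48 h in FGF/CHIR and sorted for Tbxt::GFP, served as a point between the 2 ends. CHIR inhibits the kinase GSK3 and so activates WNT signalling. All of these cells were exposed to FGF and CHIR. The labels do not state whether the libraries of a group came from separate cultures, so the spread between libraries may be technical. The p-values and SEs come from 1 fit of all 15 libraries. They thus also hold the spread within groups other than the 2 compared.

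NMPs are the bipotent cells of the caudal embryo that feed both spinal cord and paraxial mesoderm. They hold the neural factor Sox2 and the mesodermal factor Brachyury (Tbxt) together, under FGF and WNT signals. Cells that turn to mesoderm lose Sox2, pass through presomitic mesoderm with its Notch-driven segmentation clock, and later give mesenchyme. Mesenchyme is loose tissue of single cells that secrete their own matrix, and the connective tissue, cartilage, bone and limb bud of the embryo arise from it.

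Values are counts per 1000000 reads (CPM) as deposited. Depth, inferred from the step of 1 read, was 3.43 to 5.05 M reads in Tbxt 7 d libraries and 6.22 to 8.61 M in NMP libraries, so that 3 reads, the floor used here, came to 0.594 to 0.874 CPM in Tbxt 7 d libraries and 0.348 to 0.482 CPM in NMP libraries. These floors cover counting error only. Mitochondrial transcripts held 6.24 to 6.98% of the reads in Tbxt 7 d libraries and 4.04 to 5.07% in NMP libraries, and ribosomal protein genes 9.65 to 10.4% in Tbxt 7 d libraries and 13.5 to 15.5% in NMP libraries. Fold changes are log2 values ± SE, Tbxt 7 d over NMP, from a limma fit on log2(CPM + 1), which understates the change of low genes, and a gene "rose" or "fell" where its Benjamini-Hochberg adjusted p was under 0.05. Of 12943 genes tested, 8109 (62.7%) were called, 4265 (33.0%) higher and 3844 (29.7%) lower. The split turned under median-of-ratios scaling (3970 higher, 4143 lower) and quantile normalization (3697 higher, 4403 lower). Against a 2-fold minimum, 2179 (16.8%) were called, 1278 (9.87%) were higher and 901 (6.96%) lower. The median log2 fold change of all genes tested was 0.07. With so many genes called, the counts of each group of genes below are to be read against these shares. In bulk samples, fewer cells of a type and less RNA per cell cannot be told apart.

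Tbxt 7 d replicate 1 stood apart from the other libraries of its group. Its root mean square log2 distance was 0.695 to replicate 2 and 0.698 to replicate 3, while replicates 2 and 3 differed by 0.332. NMP libraries differed by 0.266 to 0.441. Of 7902 genes at 20 CPM or more in a Tbxt 7 d library, 287 lay over 2-fold above both other libraries in replicate 1 and 194 over 2-fold below. In the same count, replicate 2 had 0 genes above and 11 below, and replicate 3 had 9 above and 3 below. Fold changes that moved by over 1.5 times without replicate 1 are given on the log2 scale with and without it.

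The sorted reporters came out as gated. Sox2 was at 1.46, 0 and 0.263 CPM in Tbxt 7 d cells, against 164, 241 and 224 CPM in NMPs. Tbxt, which the table lists under its older symbol T, was at 0.582, 0.396 and 2.11 CPM in Tbxt 7 d cells, against 284, 431 and 445 CPM in NMPs. The sort used both reporters, so these values check the labels and are no finding. Tbxt 7 d cells, Tbxt 48 h cells and NMPs differed in sort gate as well as in time in culture. For every gene below, a change in culture and a selection by the gate cannot be told apart.

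The mesenchyme name was checked against 13 surface and filament markers. Of the 10 that passed the filter, 7 rose and 2 fell, or 1 fell without Tbxt 7 d replicate 1, Tbxt 7 d replicate 2, NMP replicate 2 or NMP replicate 3. Ly6a, Fap and Cd34 did not pass the filter. The surface glycoprotein gene Thy1 was not called, with 19.5, 17.4 and 9.48 CPM in Tbxt 7 d cells and 9.59, 9.81 and 9.64 CPM in NMPs (adjusted p = 0.12). Vim, the intermediate filament of mesenchymal cells, was at 1466, 1879.7 and 1740.3 CPM in Tbxt 7 d cells and already at 332, 489.8 and 446 CPM in NMPs (log2 fold change 2.01 ± 0.23, adjusted p = 2.0e-05). The PDGF receptor gene Pdgfra was at 131, 86.1 and 139.8 CPM in Tbxt 7 d cells and 0.518, 1.13 and 1.39 CPM in NMPs (5.89 ± 0.31, adjusted p = 1.2e-08). Its partner Pdgfrb also rose (3.44 ± 0.24). Cdh11, a cadherin of mesenchymal cells, gave 1211, 886 and 888 CPM in Tbxt 7 d cells, against 2.46, 4.82 and 4.18 CPM in NMPs (7.71 ± 0.29, adjusted p = 1.4e-09). Not every surface gene used for mesenchymal cells was high. The endoglin gene Eng fell, to 3.2, 0.198 and 1.32 CPM in Tbxt 7 d cells, against 12.6, 9.33 and 12.3 CPM in NMPs (−2.44 ± 0.41, adjusted p = 1.9e-04). The ectonucleotidase gene Nt5e (CD73) had 1.75, 5.35 and 15.5 CPM in Tbxt 7 d cells and 10.6, 18.8 and 19 CPM in NMPs; its libraries overlapped, and its call (adjusted p = 0.041) was lost without Tbxt 7 d replicate 1 (adjusted p = 0.15).

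**Figure D1:**
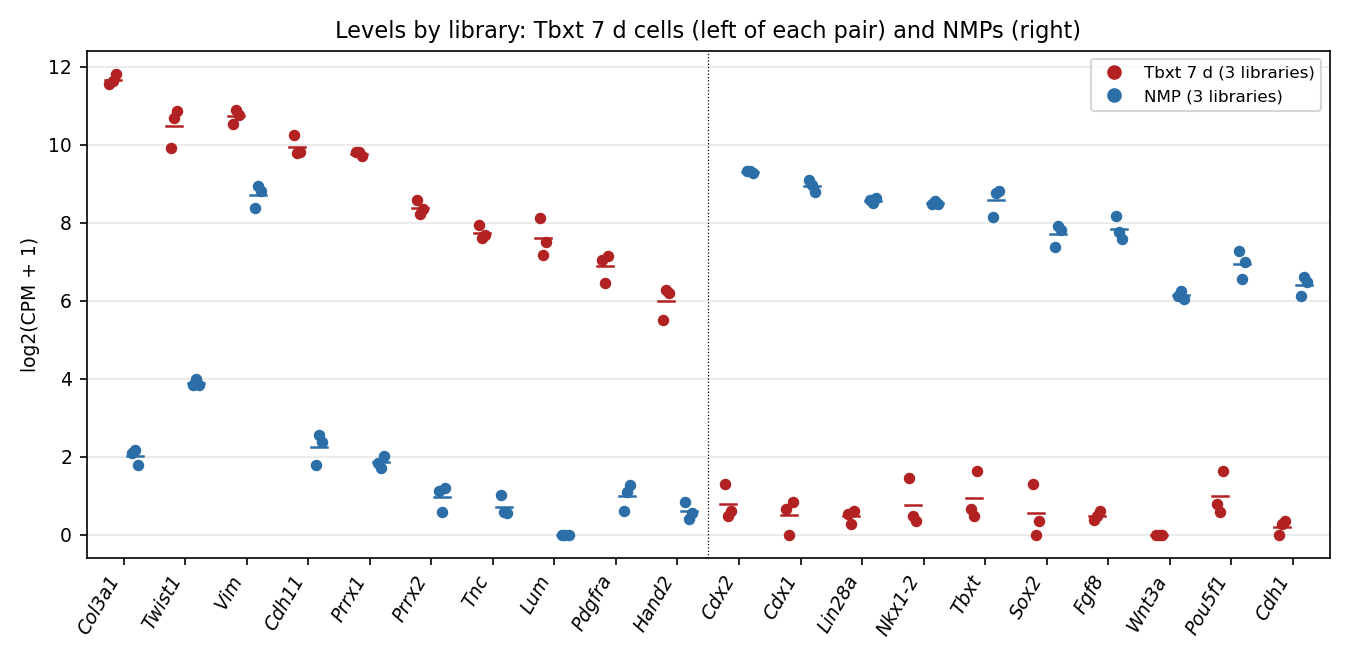
Levels by library, as log2(CPM + 1), of 10 genes that rose (left of the dotted line) and 10 that were low in Tbxt 7 d cells (right of it). Points are libraries, with Tbxt 7 d left of NMP for each gene, and short lines are means. The 2 groups do not overlap in any of the 20 genes; Sox2 and Tbxt were used in the sort.

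Genes of the caudal progenitor state fell almost throughout. Of 15 genes of NMPs and the caudal epiblast, 14 fell and 1 rose, and none overlapped between the groups, where 68.5% of all genes tested did not overlap. Their summed level was 86.3 to 95.6 CPM in Tbxt 7 d cells and 2404 to 2655 CPM in NMPs. Cdx2, a caudal homeobox factor that opens posterior Hox genes, was at 1.46, 0.396 and 0.527 CPM in Tbxt 7 d cells and 638, 636 and 615 CPM in NMPs (−8.50 ± 0.18, adjusted p = 5.3e-12). Its relative Cdx1 was at 0.582, 0 and 0.79 CPM in Tbxt 7 d cells and 544, 496 and 436 CPM in NMPs (−8.44 ± 0.32). Nkx1-2, a homeobox marker of NMPs, was at 1.75, 0.396 and 0.263 CPM in Tbxt 7 d cells and 356, 372 and 353 CPM in NMPs (−7.74 ± 0.25, adjusted p = 3.8e-10). The caudal ligands went with the factors. Fgf8 was at 0.291, 0.396 and 0.527 CPM in Tbxt 7 d cells and 284, 214 and 191 CPM in NMPs (−7.34 ± 0.35). Wnt3a was at 0 in every Tbxt 7 d library, against 68.4, 74.5 and 64.7 CPM in NMPs, which is at least 79.2-fold lower at the 3-read floor of a library. Cyp26a1, which clears retinoic acid from the tail bud, was also at 0 in Tbxt 7 d cells, against 21.6, 24.1 and 26.8 CPM in NMPs (at least 27.7-fold lower). The exception was Gdf11, the TGFβ-family ligand that times the trunk-to-tail transition, with 28.7, 29.5 and 26.3 CPM in Tbxt 7 d cells and 14.8, 17.9 and 13.6 CPM in NMPs (0.84 ± 0.17, adjusted p = 0.001). Gbx2, a homeobox gene of the early neural plate, was at 1.75, 0 and 0.263 CPM in Tbxt 7 d cells, against 169, 147 and 135 CPM in NMPs. Foxb1, a forkhead gene, had 1 read in all over the 3 Tbxt 7 d libraries, against 111, 133 and 123 CPM in NMPs.

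Pluripotency transcripts that NMPs still held were lower as well. Among epiblast genes, 9 of 12 tested fell and 0 rose. The number that fell was 8 when any 1 library of the 2 groups was left out and under quantile normalization. It was 10 in a fit of the compared groups alone. Pou5f1 (Oct4) was at 0.728, 0.495 and 2.11 CPM in Tbxt 7 d cells and 152, 92.7 and 125 CPM in NMPs (−5.93 ± 0.37, adjusted p = 5.2e-08). Sall4, a zinc finger partner of Oct4, was at 9.9, 0.396 and 1.05 CPM in Tbxt 7 d cells, with replicate 1 the highest, and 157, 204 and 191 CPM in NMPs (−5.87 ± 0.62, and −6.76 without replicate 1). Nr6a1 (GCNF), the nuclear receptor that represses Oct4 and shapes trunk Hox expression, also fell, to 7.28, 9.7 and 4.74 CPM in Tbxt 7 d cells, against 813, 1184 and 971 CPM in NMPs (−6.94 ± 0.23, adjusted p = 6.3e-10). Of 11 naive pluripotency genes tested, 9 fell. Tdh, the threonine dehydrogenase of mouse stem cells, had 2 reads in all over the Tbxt 7 d libraries, against 87.1, 70.8 and 99.4 CPM in NMPs. The single riser was Klf4, a Krüppel-like factor that is also used outside stem cells, at 97.3, 26.2 and 52.6 CPM in Tbxt 7 d cells and 5.29, 5.71 and 7.15 CPM in NMPs (2.90 ± 0.38, adjusted p = 5.0e-05). Dppa5a was at or near 0 in Tbxt 7 d cells, against 154, 102 and 119.5 CPM in NMPs; a fraction of a read was assigned to it, so it shares reads with another locus and its level is uncertain.

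Most epithelial genes fell and EMT factors rose. Of 15 epithelial genes tested, 12 fell and 1 rose. The E-cadherin gene Cdh1 was at 0, 0.198 and 0.263 CPM in Tbxt 7 d cells (2 reads in all) and 68.7, 95.7 and 87.7 CPM in NMPs. Epcam, an epithelial adhesion molecule, was at 1.46, 2.97 and 2.9 CPM in Tbxt 7 d cells and 91.7, 102 and 104 CPM in NMPs (−4.90 ± 0.27, adjusted p = 1.8e-08). The tight junction genes Cldn3 and Cldn6 were at 0 in all 3 Tbxt 7 d libraries, at least 15.2-fold and 11.8-fold lower than in NMPs. Cdh3, P-cadherin, was the member that rose. It was at 258, 30.1 and 47.7 CPM in Tbxt 7 d cells and 15.7, 23.2 and 20.6 CPM in NMPs, with an adjusted p of 0.048 that became 0.074 without replicate 1. Its call was also lost without any 1 of the NMP libraries, and under median-of-ratios scaling or quantile normalization. The 6 EMT transcription factors, the repressors that shut down epithelial genes, rose, but 5 did so under quantile normalization and without Tbxt 7 d replicate 2, Tbxt 7 d replicate 3, NMP replicate 1 or NMP replicate 3. Twist1, a bHLH factor of cranial and limb mesenchyme, was at 956, 1645 and 1862 CPM in Tbxt 7 d cells and 13.2, 15 and 13.2 CPM in NMPs (6.60 ± 0.33, adjusted p = 3.6e-08). Snai2 was at 403, 113 and 113 CPM in Tbxt 7 d cells and 5.06, 9.17 and 8.24 CPM in NMPs (4.39 ± 0.47, and 3.78 without replicate 1), and Snai1 at 69, 91.9 and 99 CPM in Tbxt 7 d cells and 3.24, 6.27 and 6.27 CPM in NMPs (3.83 ± 0.23). Twist2 had 25.9, 119 and 203 CPM in Tbxt 7 d cells, with replicate 1 the lowest, and 2.07, 1.77 and 1.04 CPM in NMPs (5.07 ± 0.60, and 5.91 without replicate 1). Zeb2 changed least, with libraries that overlapped (0.57 ± 0.21, adjusted p = 0.029).

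Transcription factors of limb and lateral plate mesenchyme were among the largest gains. Of 18 such genes listed, 12 were tested. Of these, 8 rose, all of them also against the 2-fold minimum, and 0 fell, or 1 without replicate 1. All 18 summed to only 14.4 to 19.1 CPM in NMPs, so they had little room to fall. With no filter beyond a nonzero value in 2 libraries, 9 of 18 rose, with a median log2 fold change of 0.762, against 4.71 with the filter. Prrx1, the paired-related factor of limb and craniofacial mesenchyme, was at 888, 896 and 832 CPM in Tbxt 7 d cells and 2.59, 2.25 and 3.02 CPM in NMPs (7.92 ± 0.56, adjusted p = 1.0e-06). Its paralog Prrx2 gave 382, 297 and 325 CPM in Tbxt 7 d cells, against 1.17, 0.482 and 1.28 CPM in NMPs (7.43 ± 0.31). The 3 Tbxt 7 d libraries lay close together in both genes, while the SEs also hold the spread within other groups of the fit. Hand2, which sets the posterior limb bud, was at 44, 75.8 and 71.6 CPM in Tbxt 7 d cells and 0.778, 0.322 and 0.464 CPM in NMPs (5.38 ± 0.30). Lhx2, a LIM-homeobox factor of distal limb mesenchyme, was at 54.4, 102 and 87.4 CPM in Tbxt 7 d cells and 2.07, 2.73 and 1.51 CPM in NMPs (4.70 ± 0.50). Osr1 and Osr2, zinc finger factors of intermediate mesoderm and connective tissue, reached 37.3, 67.5 and 87.7 CPM and 34.9, 22.8 and 55.6 CPM in Tbxt 7 d cells, with 3 and 2 reads in all in the NMP libraries. Shox2, the homeobox gene of proximal limb bones, was at 85, 295 and 329 CPM in Tbxt 7 d cells and 0.518, 0.643 and 1.04 CPM in NMPs (6.88 ± 0.44, and 7.51 without replicate 1). The set was not complete. The limb-type factors Tbx4, Tbx5 and Pitx1 stayed at or below 2.62 CPM in every Tbxt 7 d library, and Hand1, of lateral plate and heart, at or below 0.874 CPM. Foxf1, of splanchnic mesoderm, and Isl1, of the early hindlimb field, were at or below 1.46 CPM. Among somite derivatives, 4 of 10 tested genes rose and 2 fell, or 3 without Tbxt 7 d replicate 1 and 1 without any other single library of the 2 groups. Pax9, of sclerotome, rose (18.3, 13.3 and 16.1 CPM in Tbxt 7 d cells and 0.778, 0.482 and 0.697 CPM in NMPs, 3.35 ± 0.25), as did Meox2, a homeobox gene of somite and limb muscle precursors, with 7.57, 31.7 and 74.8 CPM in Tbxt 7 d cells and 0 in every NMP library. Meox2 was spread, lowest in replicate 1. No skeletal muscle gene reached the filter, and none of 8, Myod1, Myf5 and Myog included, exceeded 1.69 CPM in any of the 6 libraries.

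Genes of the extracellular matrix rose almost throughout. Of 16 collagen genes, 15 rose, and of 20 matrix glycoproteins and proteoglycans tested, all 20 rose. All 14 tested genes of collagen modification and cross-linking rose too. Together the 3 lists held 1.11 to 1.51% of the reads in Tbxt 7 d libraries and 0.103 to 0.118% in NMP libraries. Their median log2 fold changes were 4.12, 4.24 and 2.90, against 0.07 over all genes tested. Without replicate 1, 15 of 16, 19 of 19 and 14 of 14 genes tested rose, and the collagen median was 3.42. Col3a1, the fibrillar collagen of loose connective tissue, showed the largest log2 rise of the genes named here, with 3023, 3155 and 3599 CPM in Tbxt 7 d cells and 3.24, 3.46 and 2.44 CPM in NMPs (9.66 ± 0.36, adjusted p = 7.8e-09). Type I collagen varied more. Col1a1 was at 1610.5, 210.5 and 476 CPM in Tbxt 7 d cells, with replicate 1 the highest, and 17.4, 32 and 21.5 CPM in NMPs (4.51 ± 0.85, adjusted p = 0.0013, and 3.73 without replicate 1, adjusted p = 0.0072). The microfibrillar Col6a3 was even across libraries, at 155, 138 and 156 CPM in Tbxt 7 d cells and 0.389, 0.804 and 1.04 CPM in NMPs (6.45 ± 0.36). The 1 collagen that fell was Col18a1, a basement membrane collagen, at 33.8, 39 and 31.6 CPM in Tbxt 7 d cells and 75.4, 103 and 78.6 CPM in NMPs (−1.27 ± 0.15).

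Of the glycoproteins, Tnc, tenascin-C of remodelling connective tissue, was at 244, 193 and 205 CPM in Tbxt 7 d cells and 1.04, 0.482 and 0.464 CPM in NMPs (7.03 ± 0.24, adjusted p = 4.2e-10). Lum, the small leucine-rich proteoglycan that spaces collagen fibrils, was at 279, 143 and 179 CPM in Tbxt 7 d cells and at 0 in every NMP library, at least 415-fold higher at the 3-read floor of a library. Fibronectin (Fn1) was at 903, 629.7 and 719 CPM in Tbxt 7 d cells and already at 109, 196 and 169 CPM in NMPs (2.27 ± 0.47). Postn, periostin, depended on 1 library for its size. It was at 46.3, 4.75 and 7.37 CPM in Tbxt 7 d cells and had 1 read in all in NMPs. Of the enzymes, the collagen chaperone gene Serpinh1 (HSP47) was at 1819, 2483 and 2525 CPM in Tbxt 7 d cells and 459, 364 and 381 CPM in NMPs (2.49 ± 0.14, adjusted p = 1.9e-08). Bmp1, the procollagen C-proteinase, was at 107, 100.2 and 110.0 CPM in Tbxt 7 d cells and 9.98, 9.17 and 10.2 CPM in NMPs (3.31 ± 0.15). Loxl1, a cross-linking lysyl oxidase, was at 80.1, 58.4 and 90.1 CPM in Tbxt 7 d cells and 1.3, 1.61 and 0.929 CPM in NMPs (5.07 ± 0.29). Of 12 matrix proteases and inhibitors tested, 10 rose and 1 fell. Mmp14, a membrane-bound collagenase, was at 189.7, 141 and 126 CPM in Tbxt 7 d cells and 7.39, 10.1 and 9.99 CPM in NMPs (3.90 ± 0.21, adjusted p = 1.2e-08). Tnfaip6, a hyaluronan-binding protein, was at 73.7, 233 and 261 CPM in Tbxt 7 d cells, lowest in replicate 1, and 0.13, 0.482 and 0.348 CPM in NMPs (6.98 ± 0.38).

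**Figure D2:**
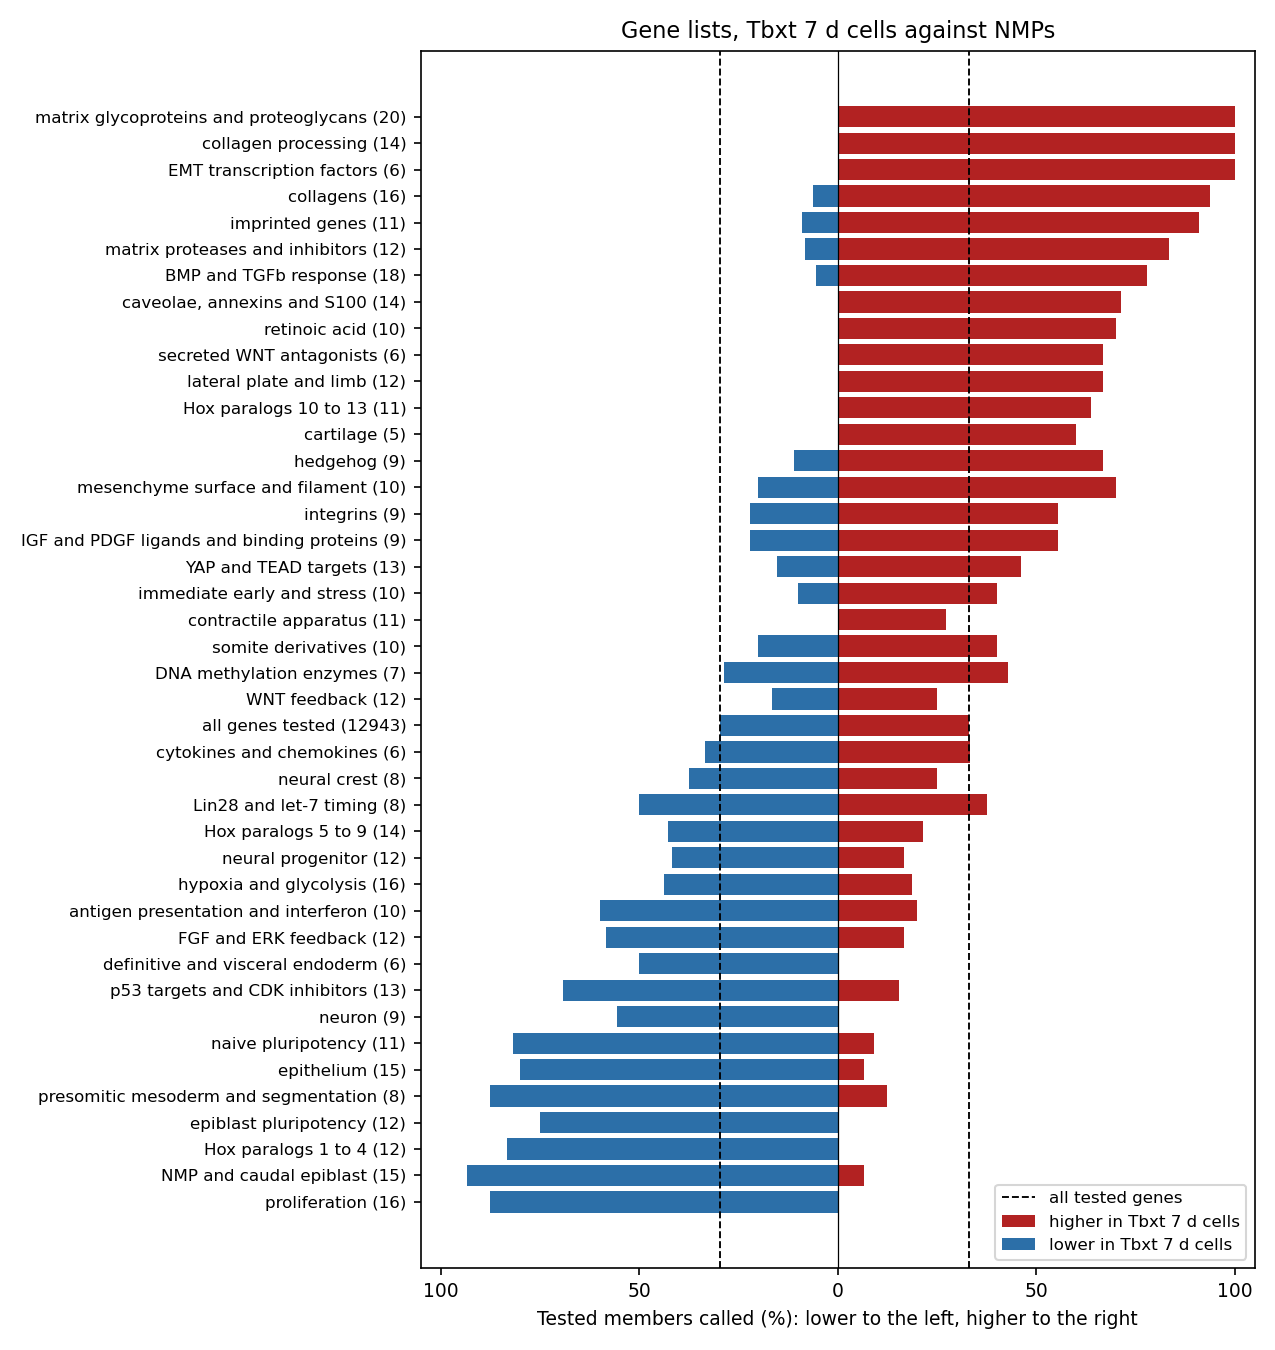
Share of the tested members of each gene list that was called higher (red, to the right) or lower (blue, to the left) in Tbxt 7 d cells than in NMPs, with the number tested in brackets. Dashed lines give the shares over all 12943 genes tested, 33.0% higher and 29.7% lower. Lists with under 5 members tested are left out. Matrix, EMT and imprinted lists lie furthest to the higher side, and caudal epiblast, presomitic mesoderm, proliferation and anterior Hox lists to the lower.

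Membrane and cytoskeletal genes of mesenchymal cells rose in part. Of 14 tested genes of caveolae, annexins and S100 proteins, 10 rose and 0 fell, or 1 fell without replicate 1. Anxa2, a membrane-organising annexin, was at 323, 309 and 376 CPM in Tbxt 7 d cells and 12.4, 14 and 14.5 CPM in NMPs (4.52 ± 0.23, adjusted p = 7.8e-09), and the caveolin gene Cav1 was at 54.4, 73.1 and 93.5 CPM in Tbxt 7 d cells and 8.3, 7.56 and 5.98 CPM in NMPs (3.15 ± 0.72). The lamin A gene Lmna, which tends to be high in stiff tissues, rose as well (246, 134 and 171 CPM in Tbxt 7 d cells and 33.1, 32.4 and 36.7 CPM in NMPs, 2.36 ± 0.38). Integrins, the receptors for matrix, went both ways, with 5 of 9 tested higher and 2 lower. Itgb5, of the vitronectin receptor, was at 195, 225 and 208 CPM in Tbxt 7 d cells and 40.8, 31.5 and 32.7 CPM in NMPs (2.55 ± 0.17), while the laminin receptor gene Itga6 fell to 20.1, 26.7 and 26.9 CPM in Tbxt 7 d cells, against 67, 149 and 139 CPM in NMPs (−2.15 ± 0.27). Of 11 genes of the contractile apparatus tested, 3 rose and 0 fell, which is under the 33.0% of all genes called higher. Without Tbxt 7 d replicate 1, 3 rose and 1 fell, and the median log2 fold change was 0.185, against 1.285 with it. The number that rose was 7 without Tbxt 7 d replicate 2 and 4 without Tbxt 7 d replicate 3. The smooth muscle actin gene Acta2 was at 132, 7.57 and 12.2 CPM in Tbxt 7 d cells and 9.33, 6.73 and 9.75 CPM in NMPs (adjusted p = 0.2), with replicate 1 alone above NMPs by a wide margin.

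Signalling genes differed by pathway. BMP and TGFβ ligands, targets and inhibitors leaned higher, with 14 of 18 rising and 1 falling. The ligand gene Bmp4 was at 143, 148 and 82.7 CPM in Tbxt 7 d cells and 2.33, 2.09 and 2.9 CPM in NMPs (5.15 ± 0.28, adjusted p = 1.6e-08). The direct BMP targets Id1, Id2 and Id3, which block bHLH factors, rose in all 3 libraries. Id1 was at 643, 783 and 763 CPM in Tbxt 7 d cells and 61.4, 45.5 and 52.9 CPM in NMPs (3.76 ± 0.23), and Id2 at 696, 880.0 and 789 CPM in Tbxt 7 d cells and 41.4, 35.5 and 36.5 CPM in NMPs (4.34 ± 0.15, adjusted p = 4.2e-10). The inhibitory Smad6 rose too (3.37 ± 0.27). Tgfb2, a TGFβ ligand of mesenchyme, was at 178, 917 and 1077 CPM in Tbxt 7 d cells, lowest in replicate 1, and 7.0, 8.04 and 6.97 CPM in NMPs (6.08 ± 0.56, and 6.90 without replicate 1). Follistatin (Fst), a secreted inhibitor of activin and GDF ligands, was the 1 member that fell, to 6.99, 9.9 and 18.4 CPM in Tbxt 7 d cells, against 178, 277 and 241 CPM in NMPs (−4.27 ± 0.29, adjusted p = 1.0e-07).

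FGF and ERK feedback genes leaned lower, with FGF in both media. Of 12 such genes, 7 fell and 2 rose, and 10 fell without replicate 1. Dusp4, a phosphatase that ERK induces against itself, was at 2.91, 1.58 and 0.263 CPM in Tbxt 7 d cells and 58.2, 64.6 and 52.9 CPM in NMPs (−4.67 ± 0.31, adjusted p = 9.5e-08). Etv4, an ETS factor downstream of FGF, was at 9.03, 2.57 and 3.16 CPM in Tbxt 7 d cells and 153, 78.3 and 98.2 CPM in NMPs (−4.33 ± 0.39). The 2 that rose were receptors. Fgfr2 was at 102, 118 and 107 CPM in Tbxt 7 d cells and 3.89, 1.77 and 2.79 CPM in NMPs (4.88 ± 0.22), and Fgfr1 at 264, 251 and 301 CPM in Tbxt 7 d cells and 96.2, 128 and 94.3 CPM in NMPs (1.36 ± 0.15). WNT feedback genes split, with 3 of 12 higher and 2 lower, near or under the share of all genes. The number higher was 1 without Tbxt 7 d replicate 2, Tbxt 7 d replicate 3 or NMP replicate 1, and 6 without Tbxt 7 d replicate 1. Nkd2, an intracellular brake on WNT, was at 159, 349.8 and 366 CPM in Tbxt 7 d cells and 3.76, 4.82 and 4.64 CPM in NMPs (5.67 ± 0.29, adjusted p = 1.2e-08). The pathway factor Tcf7 fell to 15.1, 25.3 and 24.2 CPM in Tbxt 7 d cells, against 96.8, 117 and 104 CPM in NMPs (−2.28 ± 0.18). Of 6 secreted WNT antagonists tested, 4 rose. Dkk2 was at 128, 132 and 174 CPM in Tbxt 7 d cells and 0.13, 0.482 and 0.348 CPM in NMPs (6.78 ± 0.28, adjusted p = 1.6e-09).

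Retinoic acid genes rose in 7 of 10 tested and fell in 0. Crabp1, a cellular retinoic acid binding protein, was at 638, 1264 and 1587 CPM in Tbxt 7 d cells and 43.8, 31 and 28.4 CPM in NMPs (4.96 ± 0.36). The clearing enzyme gene Cyp26b1, the form used in limb mesenchyme, was at 23.3, 54.2 and 68.7 CPM in Tbxt 7 d cells and 0.259, 0.161 and 0.348 CPM in NMPs (5.18 ± 0.35), so Cyp26a1 was the form above the floor in NMPs and Cyp26b1 in Tbxt 7 d cells. The synthesis enzyme gene Aldh1a2 did not reach the filter, with at most 4.95 CPM in a Tbxt 7 d library. Hedgehog pathway genes rose in 6 of 9 tested and fell in 1. The co-receptor gene Gas1 was even, at 846, 738 and 956 CPM in Tbxt 7 d cells and 13.9, 18 and 13.5 CPM in NMPs (5.72 ± 0.14, adjusted p = 2.3e-11), and the co-receptor gene Cdon was at 153, 148 and 203 CPM in Tbxt 7 d cells and 4.28, 9.49 and 9.17 CPM in NMPs (4.34 ± 0.27). Gli2, a transcriptional effector, rose (2.50 ± 0.21). The targets Ptch1 and Gli1, which report active signalling, were not called. Ptch1 was at 20.4, 22.7 and 25.4 CPM in Tbxt 7 d cells and 24.4, 33.3 and 21.9 CPM in NMPs (adjusted p = 0.37). Gli1 was at 2.04, 16.8 and 14.5 CPM in Tbxt 7 d cells and 3.5, 3.06 and 1.63 CPM in NMPs (1.38 ± 0.68, adjusted p = 0.096), and rose without replicate 1 (2.19, adjusted p = 0.0021). IGF and PDGF genes rose in 5 of 9 tested and fell in 2, or in 4 without replicate 1. Igf1, the growth factor gene, was at 12.5, 13.9 and 25.3 CPM in Tbxt 7 d cells with 2 reads in all in NMPs, and the IGF-binding protein gene Igfbp4 was at 744, 631 and 694 CPM in Tbxt 7 d cells and 39.5, 38 and 27.5 CPM in NMPs (4.28 ± 0.15). Of the PDGF ligands, Pdgfa fell (17.2, 10.9 and 9.74 CPM in Tbxt 7 d cells and 75.6, 85 and 73.7 CPM in NMPs, −2.58 ± 0.20) and Pdgfc rose (48.3, 31.8 and 50.6 CPM in Tbxt 7 d cells and 7.91, 12.4 and 9.4 CPM in NMPs, 2.02 ± 0.23).

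Within the Tbxt 7 d group, replicate 1 differed from replicates 2 and 3 along groups of genes. It was low in WNT feedback: 6 of 10 such genes at 20 CPM or more lay over 2-fold below both other libraries, and 1 above. Axin2, a universal WNT target, was at 93.5 CPM in replicate 1 and at 556 and 546 CPM in replicates 2 and 3, against 188, 296 and 249.5 CPM in NMPs. Notum, a secreted enzyme that inactivates WNT ligands, was at 6.11, 211 and 189.6 CPM in Tbxt 7 d cells, against 101, 107 and 86.8 CPM in NMPs. Without replicate 1, 6 of the WNT feedback genes were higher than in NMPs and 3 lower. The same library was high in ERK feedback, where 5 of 8 genes lay over 2-fold above both others. Dusp6 was at 104, 5.94 and 4.74 CPM in Tbxt 7 d cells, with replicate 1 closest to the 128, 160.2 and 167 CPM of NMPs. The immediate early gene Fos was at 107, 8.71 and 7.64 CPM in Tbxt 7 d cells and 6.22, 9.01 and 10.4 CPM in NMPs. Contractile genes (6 of 10) and YAP and TEAD targets (7 of 11) were high in replicate 1 as well. Tagln, an actin-binding protein of smooth muscle, was at 70.2, 0.594 and 2.63 CPM in Tbxt 7 d cells and 0.778, 1.61 and 1.04 CPM in NMPs, and the YAP target Ccn1 at 177, 17.3 and 17.1 CPM in Tbxt 7 d cells and 8.68, 14.2 and 12.1 CPM in NMPs. Cartilage genes shared this (4 of 5): Sox9, the master factor of chondrocytes, was at 109, 23 and 11.9 CPM in Tbxt 7 d cells and 2.72, 3.54 and 4.3 CPM in NMPs (2.85 ± 0.64, adjusted p = 0.0029, and 1.97 without replicate 1, adjusted p = 1.5e-04). Against NMPs, 6 of 13 YAP and TEAD targets tested rose and 2 fell, with 1 to 3 lower when 1 library was left out, and 4 of 10 immediate early and stress genes rose and 1 fell. None of 16 proliferation genes differed over 2-fold in replicate 1. The labels name no difference between these libraries.

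**Figure D3:**
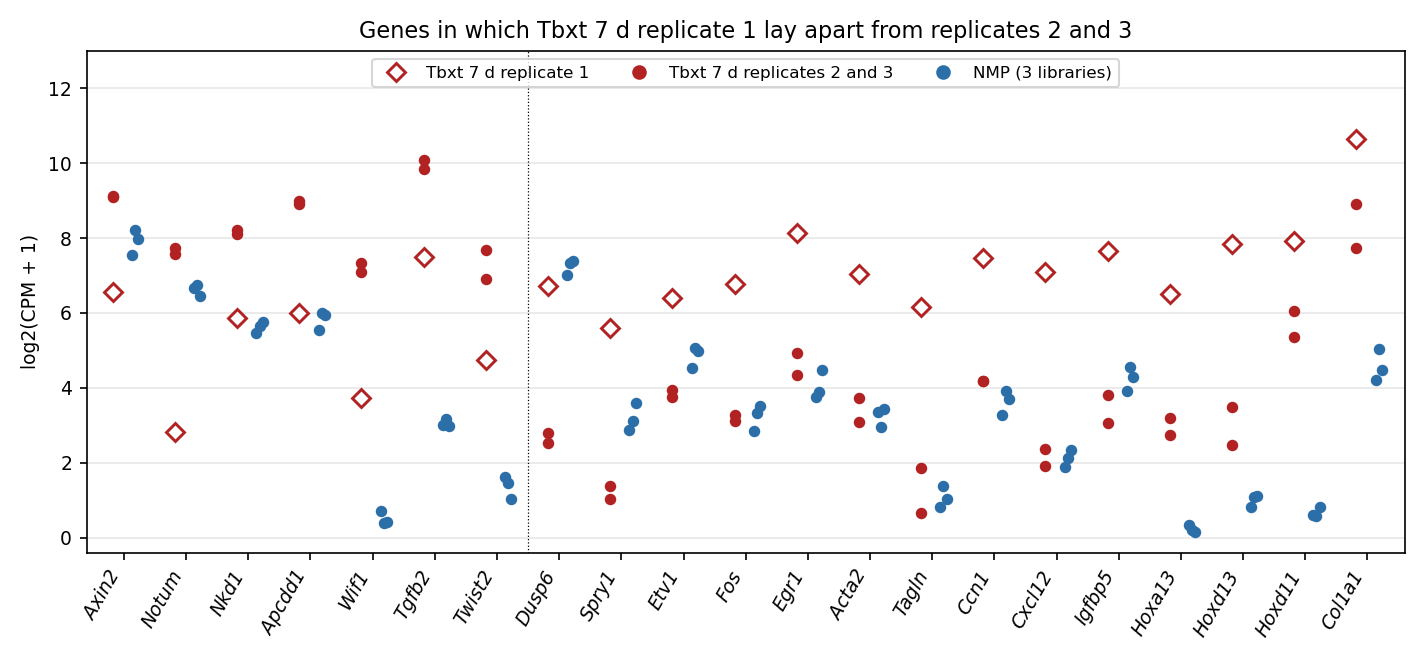
Levels by library, as log2(CPM + 1), of 21 genes in which Tbxt 7 d replicate 1 (open diamonds) lay below (left of the dotted line) or above replicates 2 and 3 (filled red), with the 3 NMP libraries in blue to the right of each. In Dusp6, replicate 1 lies closest to the NMP libraries, and in Notum far below them. The genes were chosen for this difference, so the plot is a description.

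The path between the 2 ends was not a straight line. In the order NMP, Tbxt 48 h and Tbxt 7 d, presomitic mesoderm and segmentation genes summed to 168 to 194, 1111 to 1393 and 19 to 27.1 CPM. The 48 h level lay above both ends in all 8 tested members, of 13 listed. Genes could pass the filter through their 48 h level alone, so the filter favoured this count. The 5 others were at or below 0.929 CPM in every library of the 2 ends. Dll1, the Notch ligand of presomitic mesoderm, was at 8.81, 16.9 and 16.1 CPM in NMPs, 242 and 245 CPM at 48 h and 2.33, 0.396 and 0.263 CPM at 7 d. Hes7, the oscillating repressor of the segmentation clock, was at 62.1, 54.8 and 63 CPM in NMPs, 272 and 242 CPM at 48 h and 0.291, 2.18 and 1.32 CPM at 7 d. Tbx6, which commits cells to paraxial mesoderm, was at 2.46, 1.77 and 1.97 CPM in NMPs, 119 and 57.9 CPM at 48 h and 0.291, 0.198 and 0.263 CPM at 7 d. Against NMPs, 7 of the 8 were lower at 7 d, so a comparison of the 2 ends alone does not show this peak. With no filter beyond a nonzero value in 2 libraries, 8 of 12 were lower and 1 higher. The median log2 fold change was then −1.33, against −2.90 with the filter. The chemokine receptor gene Cxcr4, which is active in migrating mesoderm, was at 24.2, 19 and 19 CPM in NMPs, 209 and 242 CPM at 48 h and 0.582, 0.594 and 0.263 CPM at 7 d. Over all genes, 7014 (54.2%) differed between 7 d and 48 h, 3969 (30.7%) higher and 3045 (23.5%) lower. Under quantile normalization that split turned to 2954 higher and 3751 lower.

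Other groups took their step early or late. NMPs were not tested against 48 h, so the early steps are given as levels. Cdh1 was low by 48 h, at 68.7, 95.7 and 87.7 CPM in NMPs and 0.506 and 0 CPM at 48 h, with 0, 0.198 and 0.263 CPM at 7 d. Snai1 was high by 48 h, at 3.24, 6.27 and 6.27 CPM in NMPs, 109 and 87.1 CPM at 48 h and 69, 91.9 and 99 CPM at 7 d, while Twist1 was not, at 13.2, 15 and 13.2 CPM, 9.01 and 11.8 CPM and 956, 1645 and 1862 CPM in the same order. Igf2 was at 54.4, 65.8 and 72.6 CPM in NMPs, 1665 and 1659 CPM at 48 h and 967, 3090.1 and 3220.3 CPM at 7 d. The caudal factor Cdx2 was still at 384 and 402 CPM at 48 h, and 14 of the 15 caudal genes were lower at 7 d than at 48 h. None of the 12 limb and lateral plate genes tested was lower at 7 d than at 48 h and 9 were higher. The 18 listed summed to only 22.3 to 24.5 CPM at 48 h, so they had little room to be lower. For collagens, 14 of 16 were higher at 7 d than at 48 h. Col3a1 had an intermediate level, with 3.24, 3.46 and 2.44 CPM in NMPs, 84.5 and 102 CPM at 48 h and 3023, 3155 and 3599 CPM at 7 d.

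**Figure D4:**
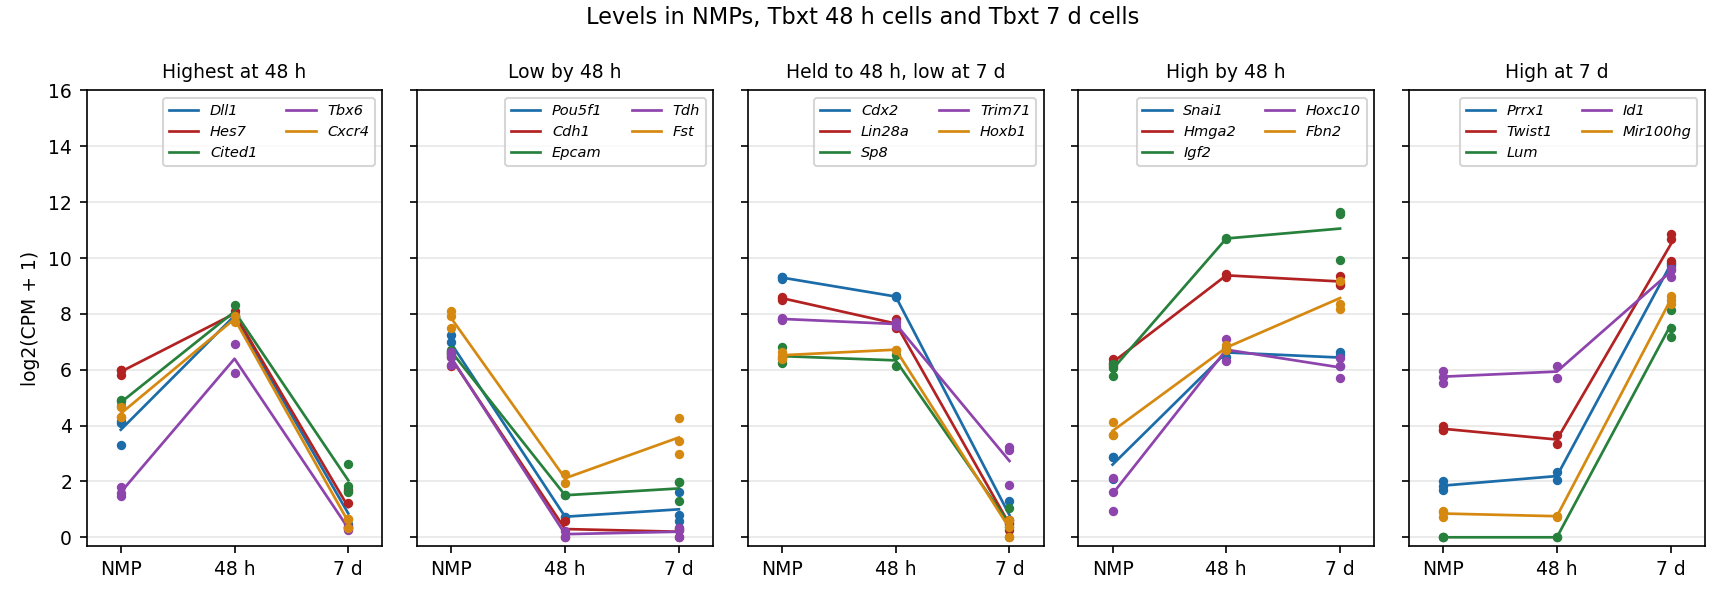
Levels, as log2(CPM + 1), of 25 genes in NMPs (3 libraries), Tbxt 48 h cells (2 libraries) and Tbxt 7 d cells (3 libraries), in 5 panels. Points are libraries and lines join the means. Dll1, Hes7 and Tbx6 peak at 48 h (left), Cdh1 and Pou5f1 are low by then, and Prrx1, Twist1 and Lum are near their NMP levels at 48 h and high at 7 d (right). Genes were placed in panels by these levels, so the panels are a description.

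Anterior Hox genes fell and posterior ones rose. The clusters are read in order along the body axis, with low numbers anterior and high numbers posterior. Of 12 genes of paralog groups 1 to 4, 10 fell and 0 rose. The number that fell was 7 to 12 when 1 library was left out, and 6 against the 2-fold minimum. At 48 h, 11 of the 12 lay above both ends. In groups 5 to 9, 6 of 14 tested fell and 3 rose, and in groups 10 to 13, 7 of 11 tested rose and 0 fell, or 1 fell without replicate 1. The 12 listed genes of groups 10 to 13 summed to only 8.69 to 13.6 CPM in NMPs, so they had little room to fall or to pass the filter through NMPs. With no filter beyond a nonzero value in 2 libraries, 7 of 12 rose and 0 fell. Hoxb8 fell to 19.8, 8.71 and 7.64 CPM in Tbxt 7 d cells, against 142, 110.5 and 115 CPM in NMPs (−3.35 ± 0.30). At the other end, Hoxa10 was at 277, 264 and 240.2 CPM in Tbxt 7 d cells and 2.59, 2.57 and 2.9 CPM in NMPs (6.14 ± 0.22, adjusted p = 6.3e-10). Hoxa11, of the zeugopod, was at 35.7, 92.3 and 87 CPM in Tbxt 7 d cells and 0.259, 0 and 0.464 CPM in NMPs (5.77 ± 0.35), and Hoxd11 at 239.7, 39.7 and 64.8 CPM in Tbxt 7 d cells and 0.518, 0.482 and 0.755 CPM in NMPs (5.77 ± 0.52, and 5.03 without replicate 1). By cluster, Hoxb had no gene that rose, and Hoxb9 was at 163, 97.2 and 75.1 CPM in Tbxt 7 d cells and 145, 90.1 and 90.2 CPM in NMPs (0.00 ± 0.27, adjusted p = 0.99). The Hoxa cluster rose from group 9 on, and Hoxa5 rose too (159.8, 162 and 122 CPM in Tbxt 7 d cells and 36.2, 38.6 and 38.8 CPM in NMPs, 1.93 ± 0.18). The size of the rise in group 13, of the autopod and tail, rested on replicate 1. Hoxd13 was at 229, 4.55 and 10.3 CPM in Tbxt 7 d cells and 0.778, 1.13 and 1.16 CPM in NMPs (3.60 ± 1.12, adjusted p = 0.019, and 1.97 without replicate 1, adjusted p = 4.1e-04). Hoxa13 was at 89.4, 5.74 and 8.16 CPM in Tbxt 7 d cells and 0.259, 0.161 and 0.116 CPM in NMPs (3.91 ± 0.74, adjusted p = 7.3e-04, and 2.74 without replicate 1, adjusted p = 3.0e-06). The antisense transcripts went to opposite sides: Hoxa11os was at 242, 119 and 122 CPM in Tbxt 7 d cells and 0.324, 0 and 0.232 CPM in NMPs (7.02 ± 0.30), and Hoxaas3 at 2.62, 1.39 and 1.32 CPM in Tbxt 7 d cells and 351, 267 and 264 CPM in NMPs (−6.75 ± 0.18). Whether counting used the strand is not given in the sources used here, so reads of an antisense transcript and of the gene opposite cannot be told apart.

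**Figure D5:**
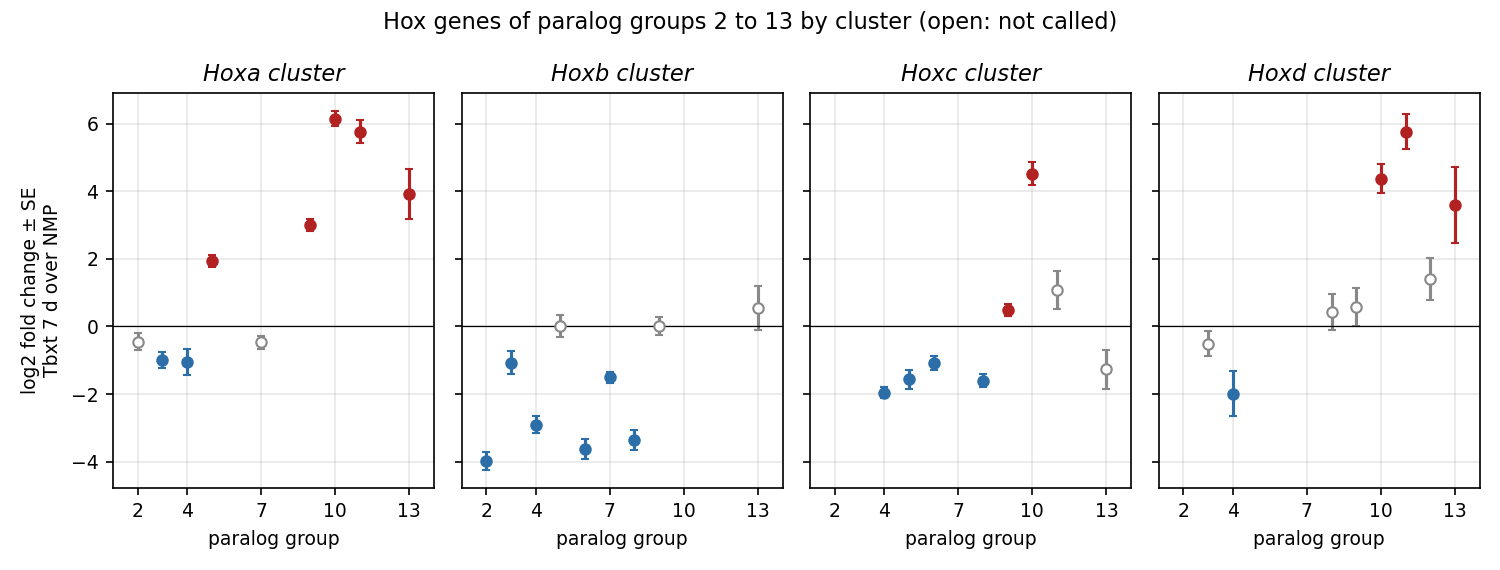
Log2 fold change ± SE (limma, Tbxt 7 d over NMP, 3 libraries each) of the tested Hox genes of paralog groups 2 to 13, by cluster. The SE is from 1 fit of all 15 libraries. Red points were higher, blue points lower and open points not called. Values for Hoxd10, Hoxc11 and Hoxd12 rest on at most 3 reads in 1 of the groups and depend on the pseudocount.

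Genes of developmental timing fell in part. Lin28a, an RNA-binding protein of early cells that blocks the maturation of let-7 microRNAs, was at 0.437, 0.198 and 0.527 CPM in Tbxt 7 d cells and 378, 363 and 392 CPM in NMPs (−8.10 ± 0.14, adjusted p = 8.6e-13). Its paralog Lin28b was at 6.11, 21.8 and 19.8 CPM in Tbxt 7 d cells and 49.8, 68.2 and 57.2 CPM in NMPs (−1.98 ± 0.35). Trim71, a let-7 target that keeps progenitors dividing, was at 2.62, 7.72 and 8.3 CPM in Tbxt 7 d cells and 218, 232 and 226 CPM in NMPs (−5.09 ± 0.28, adjusted p = 4.6e-08). Of the 8 genes listed for this circuit, 4 fell and 3 rose. Under median-of-ratios scaling or quantile normalization, 2 rose. The same held without any single library of the 2 groups other than Tbxt 7 d replicate 1. Hmga2, a chromatin protein and also a let-7 target, went the other way, with 654, 545 and 523 CPM in Tbxt 7 d cells and 74.5, 83.5 and 69.9 CPM in NMPs (2.90 ± 0.12, adjusted p = 1.4e-09). It was already at 686 and 646 CPM at 48 h, where it did not differ from 7 d past the threshold (−0.22 ± 0.13, adjusted p = 0.18).

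Among the 12 largest rises were the microRNA host transcripts Mir100hg and Dnm3os. Mir100hg was at 401, 326 and 364 CPM in Tbxt 7 d cells and 0.907, 0.643 and 0.871 CPM in NMPs (7.65 ± 0.30, adjusted p = 1.2e-09). Dnm3os was at 248, 276 and 268 CPM in Tbxt 7 d cells, with 1 read in all in NMPs. Dnm3, on the opposite strand, also rose (8.74, 42.8 and 37.9 CPM in Tbxt 7 d cells and 0.259, 0.563 and 0.116 CPM in NMPs), and the strand limit holds here too. Once these were seen, all tested host transcripts named in this way were read: of 8, Mir100hg included, 6 were higher and 1 lower. Mir99ahg was at 68.1, 67.2 and 73.7 CPM in Tbxt 7 d cells and 0.259, 0.482 and 0.232 CPM in NMPs (5.74 ± 0.23), Mir181a-1hg at 75.4, 131 and 126 CPM in Tbxt 7 d cells and 0.713, 0.724 and 0.755 CPM in NMPs (5.97 ± 0.30) and Mir503hg at 55.4, 74.9 and 85.1 CPM in Tbxt 7 d cells and 0.518, 1.29 and 0.232 CPM in NMPs (5.46 ± 0.33). Mir17hg, host of the miR-17-92 cluster of dividing cells, fell to 18.6, 18.7 and 13.7 CPM in Tbxt 7 d cells, against 46.9, 62.3 and 54.3 CPM in NMPs (−1.63 ± 0.16, adjusted p = 2.3e-06). The libraries captured polyadenylated RNA, so the mature microRNAs were not measured.

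Mature microRNAs of Mir100hg, Mir99ahg, Dnm3os and Mir17hg are printed, and those of the other hosts that rose are not. They show which of the printed ones share a seed, the stretch of bases 2 to 8 that pairs with targets (capitals). The printed sequences run 5′ to 3′ and are from the RefSeq table. Their hairpins lie, in GRCm38.p6, at chr9:41536716-41536811 (let-7a-2), chr9:41581926-41582002 (miR-125b-1) and chr9:41531425-41531504 (miR-100), all on the plus strand, as background within Mir100hg. At chr16:77599657-77599750 (let-7c) and chr16:77598936-77599000 (miR-99a) they lie within Mir99ahg. In GENCODE M21 the hairpins at chr1:162217814-162217923 (miR-199a-2) and chr1:162223368-162223477 (miR-214) lie within Dnm3os, and that of miR-17 at chr14:115043671-115043754 within Mir17hg, each on the plus strand.
mmu-let-7a-5p: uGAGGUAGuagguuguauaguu
mmu-let-7c-5p: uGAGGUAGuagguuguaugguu
mmu-miR-100-5p: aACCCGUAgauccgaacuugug
mmu-miR-99a-5p: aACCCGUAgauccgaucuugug
mmu-miR-125b-5p: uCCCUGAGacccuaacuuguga
mmu-miR-199a-5p: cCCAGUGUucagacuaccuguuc
mmu-miR-214-3p: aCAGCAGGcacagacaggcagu
mmu-miR-17-5p: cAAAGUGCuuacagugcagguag
The printed let-7a and let-7c share a seed (GAGGUAG), and miR-100 and miR-99a share a second (ACCCGUA). Mir99ahg contains its printed hairpins in GENCODE M21. Mir100hg is not in that annotation, so its placement was not checked. The hairpins given for the 2 hosts lie on different chromosomes, and both hosts were under 1 CPM in every NMP library.

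The let-7 seed pairs with the letters CTACCTC, and 3′ UTRs in GENCODE M21 were searched for them on the transcript strand. The longest 3′ UTR of Lin28a held 2 matches and those of Trim71 and Hmga2 held 4 each. The other genes searched held matches too, 4 each in Lin28b and Igf2bp1 and 1 each in Igf2bp2 and Igf2bp3. Of 3′ UTRs within 20% of the same length, 15.5% held a match for Lin28a, 28.9% for Trim71 and 16.6% for Hmga2. The first match of each is shown, with capitals at the letters that pair with the seed, because the 3 genes hold the same element and differed in direction.
Lin28a 3′ UTR: gcacagcctgttgaaCTACCTCattt
Trim71 3′ UTR: aacattgcctaagtcCTACCTCagct
Hmga2 3′ UTR: gccgacattcaatttCTACCTCagca
Lin28a and Trim71 fell and Hmga2 rose. A match is a description of these letters and shows no regulation.

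Markers of other cell types were low or fell, with named exceptions. Of 12 neural progenitor genes tested, 5 fell and 2 rose. Sox1 was at 0 in every Tbxt 7 d library, and Sox3 fell to 1.16, 2.57 and 1.84 CPM in Tbxt 7 d cells, against 33.3, 23.6 and 23.6 CPM in NMPs (−3.29 ± 0.25). The 2 that rose are not restricted to neural cells: Zic1, also a factor of dorsal somite and mesenchyme, was at 509, 477 and 457 CPM in Tbxt 7 d cells and 20.5, 30.4 and 30.3 CPM in NMPs (4.12 ± 0.32), and Irx3, also of limb, was at 18.9, 74.4 and 102 CPM in Tbxt 7 d cells and 10.1, 9.97 and 7.31 CPM in NMPs (2.42 ± 0.47, and 3.13 without replicate 1). Of 9 neuronal genes tested, 5 fell and 0 rose, or 4 fell and 1 rose without any 1 of the Tbxt 7 d libraries, with Mnx1, of motor neurons and notochord, at 1 read in all in Tbxt 7 d cells and 43, 42.8 and 41.5 CPM in NMPs. The β-tubulin gene Tubb3 was spread, at 23.9, 134 and 91.3 CPM in Tbxt 7 d cells and 30.5, 19.8 and 24.3 CPM in NMPs (adjusted p = 0.11). In neural crest, Sox10 was at or below 0.582 CPM, and the homeobox gene Dlx5, shared with limb and bone, rose (84.1, 42.2 and 31.9 CPM in Tbxt 7 d cells and 0.13, 0.482 and 0.232 CPM in NMPs, 5.28 ± 0.43). Of 8 neural crest genes tested, 2 rose and 3 fell, but 1 rose under median-of-ratios scaling or quantile normalization, and without any single library of the 2 groups other than Tbxt 7 d replicate 1. Of 6 endoderm genes tested, 3 fell and 0 rose, and all 11 listed summed to 1.88 to 2.5 CPM in Tbxt 7 d cells and 9.72 to 10.2 CPM in NMPs. Of 13 endothelial and blood genes only Runx1, a blood factor also used in mesenchyme, reached the filter, at 14.6, 71.1 and 136 CPM in Tbxt 7 d cells and 0.648, 0.804 and 0.813 CPM in NMPs (4.93 ± 0.59, and 5.83 without replicate 1); Pecam1, Cdh5 and Ptprc were at or below 0.396 CPM in every Tbxt 7 d library. Of node and notochord genes, 1 of 2 tested rose, and 0 to 2 rose when 1 library was left out, and the 1 adipocyte gene tested was not called. Later genes of bone were near 0. Of 4 bone and tendon genes tested, 1 rose and 1 fell, or 3 without replicate 1. Runx2, the osteoblast factor, was at 119.5, 92.3 and 87.6 CPM in Tbxt 7 d cells and 0.518, 0.643 and 0.232 CPM in NMPs (6.10 ± 0.58, adjusted p = 4.1e-06), but Sp7, Ibsp and Bglap, which follow it, were at or below 0.594 CPM, and the alkaline phosphatase gene Alpl fell to 3.2, 0.594 and 1.58 CPM in Tbxt 7 d cells, against 35.2, 40.2 and 33.6 CPM in NMPs (−3.85 ± 0.28). Of 5 cartilage genes tested, 3 rose, with Acan at 0 and the type II collagen gene Col2a1 at 28.2, 27.3 and 23.4 CPM in Tbxt 7 d cells, against 13.7, 15.1 and 11.7 CPM in NMPs (0.91 ± 0.21).

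Cell cycle genes were lower and imprinted genes higher. Of 16 proliferation genes, 14 fell, 4 of them against the 2-fold minimum, and 0 rose, with a median log2 fold change of −1.17. Mcm5, of the replication helicase, was at 49.8, 43.2 and 42.1 CPM in Tbxt 7 d cells and 161, 138 and 128 CPM in NMPs (−1.64 ± 0.13, adjusted p = 2.8e-07). The sliding clamp gene Pcna was at 183, 141 and 110.3 CPM in Tbxt 7 d cells and 380.5, 443 and 416 CPM in NMPs (−1.53 ± 0.16). Mki67 and Top2a were the 2 not called, and Mki67 was at 56.5, 31.5 and 44.4 CPM in Tbxt 7 d cells and 27.5, 47 and 39.5 CPM in NMPs (0.21 ± 0.28, adjusted p = 0.54). Of 11 imprinted genes tested, 10 rose and 1 fell. Igf2, the paternally expressed fetal growth factor, was at 967, 3090.1 and 3220.3 CPM in Tbxt 7 d cells and 54.4, 65.8 and 72.6 CPM in NMPs (5.04 ± 0.41), while its neighbour H19 had at most 0.198 CPM in a Tbxt 7 d library. Cdkn1c, a maternally expressed inhibitor of cyclin-dependent kinases, was at 380.0, 382 and 419.8 CPM in Tbxt 7 d cells and 41.4, 33.4 and 32 CPM in NMPs (3.44 ± 0.15, adjusted p = 2.6e-09). Peg3 was at 624, 893 and 857 CPM in Tbxt 7 d cells and 69.9, 108 and 99.2 CPM in NMPs (3.09 ± 0.18). Peg10 was the 1 that fell (−1.43 ± 0.31). The glucose transporter genes Slc2a1 and Slc2a3 fell, Slc2a3 to 18.1, 4.75 and 7.11 CPM in Tbxt 7 d cells, against 691, 993 and 726 CPM in NMPs (−6.37 ± 0.35, adjusted p = 1.3e-07). Of 16 hypoxia and glycolysis genes, 7 fell and 3 rose, and 6 fell and 5 rose without replicate 1. The angiogenic factor gene Vegfa was among the risers, at 46.3, 53.1 and 61.1 CPM in Tbxt 7 d cells and 6.61, 12.1 and 12.8 CPM in NMPs (2.29 ± 0.59).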

How the data were processed

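Polyadenylated RNA of sorted cells was captured with oligo-dT primers that carry a molecular identifier, and fragmented by tagmentation, per the labels' protocols. The authors deposited CPM values for 78409 rows; STAR 2.7, SAMtools 1.21 and GRCm39 are named in the submitters' processing notes, while for the annotation, the counting and its strand setting no statement is given in the sources used here. Rows without a gene symbol (21909, holding 1.10 to 1.31% of the CPM in the 6 libraries) and 92 spike-in rows were left out, and 627 rows that share 311 symbols were summed, leaving 56092 named genes. Whole reads were not recovered: at a tolerance of 0.01 reads, 71.1 to 78.7% of values were whole multiples of the smallest step. No count test was therefore used.

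Genes with at least 5 CPM in 2 of the 15 libraries were tested with limma 3.58.1 (R 4.3.3, statmod 1.5.0, data.table, version 1.17.8), with a trended and robust prior, on log2(CPM + 1) in 1 fit of all 8 groups with 7 residual degrees of freedom. Adjusted p-values are Benjamini-Hochberg over all 12943 genes, with a threshold of 0.05. Tables and plots were made with Python 3.11.15, numpy 2.4.6, pandas 2.3.3 and matplotlib 3.10.9. Data were simulated with 200 changed genes, the same spread between libraries for every gene (negative binomial dispersion 0.01) and no library set apart. In them, the fit recovered 96% of 2-fold and 99% of 4-fold changes for Tbxt 7 d against NMP, with 1 false call (11940 genes). For 7 d against 48 h it recovered 89% and 100%, with 1 false call (11954 genes). In the real libraries, Tbxt 7 d replicate 1 stood apart and far more genes were called, so these rates need not hold there.

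Named genes were Sox2 and Tbxt, the 12 largest called changes in each direction without overlap (mean of 20 CPM or more in whichever group was higher), and up to 5 called members of each of 46 gene lists with the largest change, 213 in all; other list members are given with their values. Genes outside this rule, such as the other microRNA hosts and those plotted for Tbxt 7 d replicate 1 or by their 48 h level, were chosen after their values were seen. The comparison, members and lists were chosen with earlier results of these data known. Sequences are from RefSeq (GRCm38.p6) and GENCODE M21 (GRCm38), which is not the build the submitters name, and positions are given in GRCm38 only. Replicate numbers did not pair the groups, and the alternatives tried are given with the limits. Some results of single genes are not reported here.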

Additional observations from a re-analysis of the deposited data

How the results depend on the processing

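Counts of called genes depended most on a minimum fold. Against a 2-fold minimum, 2179 genes were called between Tbxt 7 d cells and NMPs, 1278 higher and 901 lower, and 1628 between 7 d and 48 h, 1122 higher and 506 lower. With a filter of 20 CPM, 2636 genes were higher at 7 d than at 48 h, with fewer genes tested. Quantile normalization gave 3697 higher and 4403 lower against NMPs, and 2954 higher and 3751 lower against 48 h. Median-of-ratios scaling gave 3970 higher and 4143 lower against NMPs, and 3644 higher and 3379 lower against 48 h. Leaving out 1 library of the compared groups at a time gave 7172 to 8082 genes against NMPs (3780 to 4145 higher, 3392 to 3937 lower) and 5122 to 7220 against 48 h (2947 to 3952 higher, 2175 to 3268 lower). Leaving out the shallow FGF Sox2+ library, which is in neither comparison, gave 8228 genes against NMPs (4349 higher, 3879 lower) and 7176 against 48 h (4060 higher, 3116 lower). Array weights gave 10207 genes against NMPs, in a fit that did not fully converge. With the replicate block, 7820 genes were called against NMPs (4115 higher, 3705 lower) and 6336 against 48 h (3638 higher, 2698 lower); same-numbered libraries had correlations of −0.19, −0.14 and −0.10 in their deviations from the group means, so the numbers were not taken as pairs. Of 213 named genes, 37 lost their call against the 2-fold minimum and 0 to 6 under each other setting, and none changed sign. Calls lost under settings other than the 2-fold minimum included those of Anxa1, Apcdd1, Nkd1, Wif1, Elavl3, Neurog2, Elavl4, Ngfr and Chrd; the cause was not tested. Among 22 list members at 0 in every library of 1 group, setting the change to its bound moved 7 list medians, by at most 0.449. The 3-read floor limits what can be said of genes under 1 CPM.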

Other observations

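Class I antigen presentation genes went both ways. Of 10 antigen presentation and interferon genes tested, 6 fell and 2, B2m and Ifitm2, rose in Tbxt 7 d cells. The class I heavy chain gene H2-K1 was at 0, 1.58 and 1.05 CPM in Tbxt 7 d cells and 102, 115 and 88.4 CPM in NMPs (−5.87 ± 0.32, adjusted p = 3.1e-08), and H2-D1 at 0.582, 0.594 and 1.05 CPM in Tbxt 7 d cells and 17.9, 23.5 and 14.6 CPM in NMPs (−3.48 ± 0.27). These 2 genes are near-identical in part, so reads could be split between them. B2m, which encodes the light chain, rose, at 179, 175 and 169 CPM in Tbxt 7 d cells and 62.2, 88.6 and 73.7 CPM in NMPs (1.22 ± 0.15, adjusted p = 1.7e-05). Of 6 cytokine and chemokine genes tested, 2 rose and 2 fell. The scavenging receptor gene Ackr3 was at 188, 120.4 and 119 CPM in Tbxt 7 d cells and 1.81, 3.7 and 2.44 CPM in NMPs (5.30 ± 0.27), while its relative Cxcr4 fell (−3.87 ± 0.22).

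Of 13 p53 targets and CDK inhibitors tested, 9 fell and 2 rose. Ccng1, a p53 target, was at 240.2, 143 and 122 CPM in Tbxt 7 d cells and 509, 653 and 595 CPM in NMPs (−1.85 ± 0.22, adjusted p = 2.4e-05), and Cdkn1a (p21) at 254, 152 and 95.9 CPM in Tbxt 7 d cells and 434, 376 and 414 CPM in NMPs (−1.39 ± 0.29). The 2 that rose were the neighbouring inhibitors Cdkn2a, with 107, 73.7 and 70.8 CPM in Tbxt 7 d cells and 50.4, 33.4 and 58.5 CPM in NMPs (0.82 ± 0.23), and Cdkn2b. Of 7 DNA methylation enzymes, 3 rose and 2 fell. The demethylase gene Tet2 was at 55, 46.5 and 47.4 CPM in Tbxt 7 d cells and 2.07, 5.15 and 5.11 CPM in NMPs (3.38 ± 0.26, adjusted p = 2.5e-07), and Dnmt3a, a de novo methylase gene, at 285, 156 and 178 CPM in Tbxt 7 d cells and 56.4, 78 and 62.1 CPM in NMPs (1.60 ± 0.20). Its relative Dnmt3b fell to 17.2, 15.8 and 14.7 CPM in Tbxt 7 d cells, against 141, 201 and 169.9 CPM in NMPs (−3.33 ± 0.23, adjusted p = 1.1e-07).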
